A study of Mus musculus with 13 samples.

Results

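The loci of Pou5f1, Sox2, Klf4 and Myc were described in 13 mouse libraries made by RRBS (reduced representation bisulfite sequencing). The method cuts DNA at CCGG with a restriction enzyme, keeps the short, CpG-rich pieces and counts methylated and unmethylated cytosines in them. A CpG belonged to a locus when it lay in a fixed interval on the mm9 build, at 35640000 to 35652000 on chromosome 17 for Pou5f1, 34546000 to 34553000 on chromosome 3 for Sox2, 55538000 to 55548000 on chromosome 4 for Klf4 and 61815000 to 61823000 on chromosome 15 for Myc. Of 3340630 CpGs read in at least 1 library, 654 lay in these intervals, with 62 at Pou5f1, 187 at Sox2, 254 at Klf4 and 151 at Myc. Of the 654, 278 were read in at least 7 libraries, 99 in all 13, and 6 had at least 10 reads in all 13. The 4 loci were chosen by measured read depth, which earlier results of these libraries had shown to be uneven at them, so depth is given as a description with no test. Within an interval, no read count or level decided which CpGs are members.

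Per the labels, the libraries were 2 female iPSC libraries marked XaXa (7 and 8), 4 female iPSC libraries marked XO (3, 5, 6 and 9), 3 male iPSC libraries (1, 2 and 4), 1 library each of male cells positive and negative for SSEA1, and 2 male mouse embryonic fibroblast (MEF) libraries (4 and 5). Induced pluripotent stem cells (iPSCs) are made from somatic cells by forced expression of reprogramming factors, SSEA1 is a surface antigen gained on the way, and XaXa denotes a pair of active X chromosomes. Feeder cells were removed from the iPSCs before DNA was taken, and the SSEA1 libraries are reprogramming intermediates. The sources used here do not give strain, alleles, age, time in culture, passage or the way in which the factors were introduced, nor which libraries came from separate cultures. A level between 0% and 100% in such bulk DNA can come from a mixture of cells, of alleles or of gene copies, which cannot be told apart.

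Pou5f1 (Oct4), a POU-family transcription factor, and Sox2, an HMG-box factor, bind DNA together and hold the pluripotent state in place. Klf4, a zinc-finger factor, and Myc, a basic helix-loop-helix factor that promotes growth, complete the set of genes used most often to reprogram fibroblasts. The endogenous Pou5f1 gene is silent and methylated in fibroblasts and loses methylation when cells become pluripotent, whereas the CpG islands at Sox2, Klf4 and Myc are usually unmethylated in both. The factors are commonly delivered as coding-sequence copies on viruses or transposons or as an inducible cassette, and reads from such a copy would map to the coding exons of the endogenous gene.

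The promoter windows, from 250 bases before to 50 after the start, show the difference in CpG content between the loci. The sequences are those of RefSeq on GRCm38.p6, 5′ to 3′, at chr17:35505782-35506081 on the plus strand for Pou5f1, chr3:34649745-34650044 on the plus strand for Sox2 and chr4:55532426-55532725 on the minus strand for Klf4, and 3 of the 4 genes had an entry. Capitals mark CGs that were read in at least 1 library.
Pou5f1: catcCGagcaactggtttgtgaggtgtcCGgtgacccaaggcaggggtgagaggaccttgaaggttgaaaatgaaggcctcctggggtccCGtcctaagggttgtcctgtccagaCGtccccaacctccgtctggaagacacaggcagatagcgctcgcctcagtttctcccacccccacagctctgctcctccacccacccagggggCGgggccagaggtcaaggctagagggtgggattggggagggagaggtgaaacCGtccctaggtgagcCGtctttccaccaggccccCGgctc
Sox2: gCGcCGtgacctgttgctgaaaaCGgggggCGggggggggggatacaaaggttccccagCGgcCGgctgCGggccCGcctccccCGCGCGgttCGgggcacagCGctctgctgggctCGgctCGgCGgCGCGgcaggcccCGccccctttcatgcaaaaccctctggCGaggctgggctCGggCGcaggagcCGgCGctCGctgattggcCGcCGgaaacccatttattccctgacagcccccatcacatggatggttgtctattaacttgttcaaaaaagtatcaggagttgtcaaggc
Klf4: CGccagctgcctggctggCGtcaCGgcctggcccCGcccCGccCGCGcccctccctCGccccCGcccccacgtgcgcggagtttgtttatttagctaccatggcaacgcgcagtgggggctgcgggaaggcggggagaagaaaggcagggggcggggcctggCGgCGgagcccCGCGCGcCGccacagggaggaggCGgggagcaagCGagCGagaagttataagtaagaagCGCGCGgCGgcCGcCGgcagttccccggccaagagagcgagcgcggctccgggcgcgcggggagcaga
In the Pou5f1 window 8 of 11 CGs were read, in the Sox2 window 27 of 27 and in the Klf4 window 24 of 40. The enzyme's site CCGG occurs 2 times in the Pou5f1 window and 3 times in each of the other two, and 52.8% of 32851 windows of this length hold at least 1. Matching the spacing of CGs in these windows to the CpG positions in the files put the starts on mm9 at 35642977 for Pou5f1 and 34548917 for Sox2, both on the plus strand, and at 55545347 for Klf4 on the minus strand.

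Libraries that stand apart bear on the values that follow. Total reads over CpGs ran from 4784488 in XO 9 to 143148634 in XaXa 8. The SSEA1 and MEF libraries read other CpGs than the iPSC libraries. In all, 358131 CpGs were read in each SSEA1 and MEF library and in none of the 9 iPSC libraries. In the intervals 131 were read in at least 3 of these 4 and in no iPSC library, so library make-up and cell type cannot be told apart where depth is compared across them. Over male iPSC, X chromosome depth was 1.42 in XaXa 7 and 1.51 in XaXa 8. For XO 3, 5, 6 and 9 it was 1.33, 1.21, 1.16 and 1.33. Relative to MEF 4 and the SSEA1 libraries it was 1.39 in MEF 5. If depth follows copy number, XO 3, 5 and 9, less so XO 6, and MEF 5 are higher than their labels would give. The XO values were still below both XaXa values. These are ratios of median reads, which are whole numbers and move in large steps in shallow libraries such as XO 9. The number of X chromosomes was thus not settled, and all libraries are called by their label.

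Depth differed widely between libraries at Pou5f1, and single blocks of the other loci were also uneven. Depth was taken over blocks of neighbouring CpGs, no more than 50 bases apart and read in at least 7 libraries, as a multiple of the mean depth of the CpGs read in all 13 libraries within 1 Mb to either side. The block at 35645098 to 35645133, 2.1 kb into the gene body, had a relative depth of 1.95 and 2.09 in XaXa 7 and 8, and XO 3, 5, 6 and 9 had 2.40, 1.74, 2.23 and 2.06. It was 53.15, 45.3 and 2.89 in male iPSC 1, 2 and 4. It was 19.0 in the SSEA1 positive library, 10.9 in the SSEA1 negative library, and 0.839 and 11.75 in MEF 4 and 5. Male iPSC 1, male iPSC 2, both SSEA1 libraries and MEF 5 thus stood above the rest, while the third male iPSC library and the other MEF library did not.

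The extra depth spanned the gene body and the sequence after it but not the promoter. At the block over the first bases of the gene, 35642987 to 35643026, relative depth was 0.0948 in male iPSC 1 and 0.665 in male iPSC 2. From there to the block at 35651788 to 35651827, near the end of the interval, blocks of high depth recurred. Of 18 Pou5f1 CpGs read in all 13 libraries, 13 were at least 5 times as deep as the median of the 13 libraries in each of male iPSC 1 and 2, 12 in the SSEA1 positive library, 9 in the SSEA1 negative library and 9 in MEF 5, and 0 in the others. Over 527007 autosomal CpGs read in all 13 libraries, the share for XaXa 7 and 8 was 0.00285% and 0.168%, and for XO 3, 5, 6 and 9 it was 0.0127%, 0.0207%, 0.0499% and 0.139%. It was 0.0178%, 0.0324% and 0.0262% in male iPSC 1, 2 and 4, 2.22% in the SSEA1 positive library, 2.36% in the SSEA1 negative library, and 2.7% and 2.49% in MEF 4 and 5. The same rule was met in 0 libraries by the 26 such CpGs of Sox2, 20 of Klf4 and 35 of Myc. CpGs that any library lacked could not meet it. Among these, the Myc block at 61819252 to 61819277 had relative depths of 0.441 and 0.237 in male iPSC 1 and 2. It had 0.759 and 0.307 in the SSEA1 positive and negative libraries, 0.558 in MEF 5, and at most 0.021 in the others. The intervals were proposed with depth known, so these shares are descriptions.

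**Figure D1:**
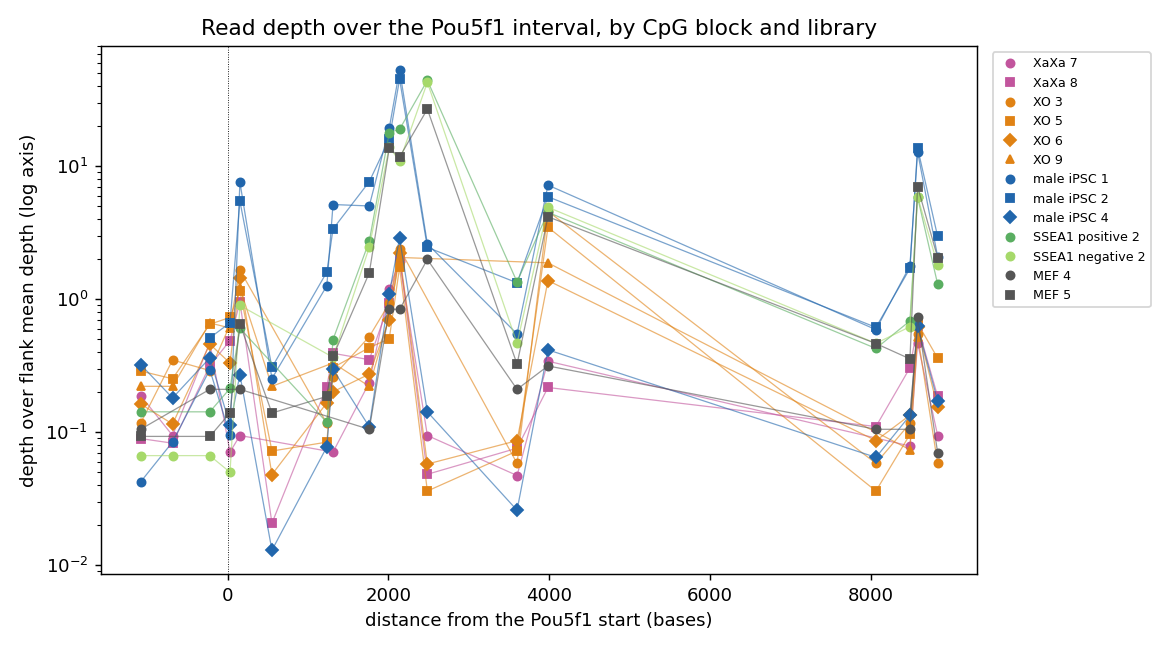
Depth of each CpG block of the Pou5f1 interval over the mean depth of the flanks (log axis) against distance from the gene's start in bases, 1 line and marker per library, coloured by group, for blocks with at least 1 read. Male iPSC 1 and 2 reach 53.15 and 45.3 at the block that begins at 35645098, where male iPSC 4 is at 2.89.

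Methylation of this block followed the same libraries among male iPSCs. The level, the percent of reads that are methylated, was 1.61% in XaXa 7, 0.329% in XaXa 8, and 2.42%, 0%, 0.714% and 0% in XO 3, 5, 6 and 9. It was 26.0%, 32.0% and 0.744% in male iPSC 1, 2 and 4. The SSEA1 positive library had 64.3% (95% Wilson interval 60.9% to 67.5%) and the SSEA1 negative library 69.0% (64.75% to 72.9%). MEF 4 had 37.5% of 24 reads (21.2% to 57.3%) and MEF 5 74.9% of 760 reads (71.7% to 77.8%). All 9 iPSC libraries lay below both MEF libraries, but male iPSC 1 and 2 came near MEF 4 and fell within its interval, whereas male iPSC 4 lay among the female iPSC libraries.

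The neighbouring block at 35644969 to 35645005 repeated this order. It was at 0% and 0.244% in XaXa, at 4.17%, 0%, 0% and 0% in XO, and at 23.6%, 36.9% and 0.392% in male iPSC 1, 2 and 4. It was at 50.1% in the SSEA1 positive library, 44.6% in the SSEA1 negative library, and 16.7% and 56.0% in MEF 4 and 5. MEF 4 here lay below male iPSC 1 and 2, so the male iPSC and MEF groups overlapped. At the single CpG 35645461, male iPSC 1, 2 and 4 had 21.0%, 29.2% and 9.09% with 62, 24 and 11 reads, and MEF 4 and 5 had 63.2% and 69.9% with 19 and 581 reads. All male iPSC libraries were below both MEF libraries there, at 19.7% ± 10.1 (SD, n = 3) and 66.5% ± 4.75 (SD, n = 2).

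At the promoter the CpG at 35642755 was nearly unmethylated in iPSCs, at 0% to 2.17% of 3 to 48 reads in the 9 libraries. With 0 of 48 reads methylated in XO 6, the Wilson interval reaches 7.41%. Both SSEA1 libraries and both MEF libraries had 100%, but of only 1 or 2 reads each, so the lower bound of their intervals is 20.7% to 34.2%. The iPSC libraries and the other 4 did not overlap at this CpG, at a depth that gives little precision on the second side. Over the 3 CpGs before the start read in at least 7 libraries, the contrast was smaller. The SSEA1 positive library had 50% of 4 reads, the SSEA1 negative library 66.7% of 3, MEF 4 66.7% of 3 and MEF 5 75% of 4. The highest iPSC level was 10% of 10 reads, in male iPSC 1. The block at 35642987 to 35643026, in the last bases of the promoter window, was uneven among iPSCs. XaXa 7 and 8 had 0% and 0.704% of 6 and 284 reads, XO 3, 5, 6 and 9 had 79.5%, 33.3%, 0% and 0% of 44, 81, 138 and 11 reads, and male iPSC 1, 2 and 4 had 0%, 11.5% and 0% of 9, 26 and 35 reads. The SSEA1 positive library had 66.7% of 12 reads, the SSEA1 negative library 100% of 3 and MEF 5 41.7% of 12, with none in MEF 4. XO 3 and 5 thus stood above the other iPSC libraries, and XO 3 also above MEF 5.

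The window over the coding part of the first exon held 4 CpGs between 35643071 and 35643182, of which 2 were read in all 13 libraries. At 35643121 to 35643138, XaXa 7 was at 50% of only 4 reads and XaXa 8 at 11.9% of 278. XO 3, 5, 6 and 9 were at 68.4%, 57.8%, 64.3% and 63.6% of 57, 64, 300 and 11 reads, a mean of 63.5% ± 4.37 (SD, n = 4). Male iPSC 1, 2 and 4 were at 12.2%, 16.8% and 19.05% of 361, 107 and 42 reads, a mean of 16.0% ± 3.50 (SD, n = 3). The XO libraries lay above all other iPSC libraries. The SSEA1 positive and negative libraries were at 47.1% and 59.3% of 17 and 27 reads, and MEF 4 and 5 at 25% of 4 reads and 67.9% of 28 reads. XO 5, 6 and 9 were within the range of the MEF libraries and XO 3 just above MEF 5, whereas in the block 2.1 kb into the gene body they were at 0% to 2.42%.

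Another block, 35646936 to 35646986, also had its highest iPSC levels in the XO libraries. XaXa 7 and 8 were at 3.45% and 1.59%, XO 3, 5, 6 and 9 at 56.6%, 35.4%, 64.8% and 23.5%, and male iPSC 1, 2 and 4 at 7.43%, 9.96% and 4.65%. The SSEA1 positive and negative libraries had 42.5% and 52.4%, and MEF 4 and 5 had 58.3% and 54.4%. The relative depth of this block was 0.342 and 0.216 in XaXa, 4.59, 3.48, 1.38 and 1.88 in XO, 7.22, 5.91 and 0.416 in male iPSC, 4.51 and 4.92 in the SSEA1 positive and negative libraries, and 0.315 and 4.17 in MEF 4 and 5. Each XO library was above each XaXa and male iPSC library in level, and XO 9, the lowest, also had the fewest reads of its group, at 34. Exons after the first were not placed, so the sequence outside the window can include coding sequence.

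**Figure D2:**
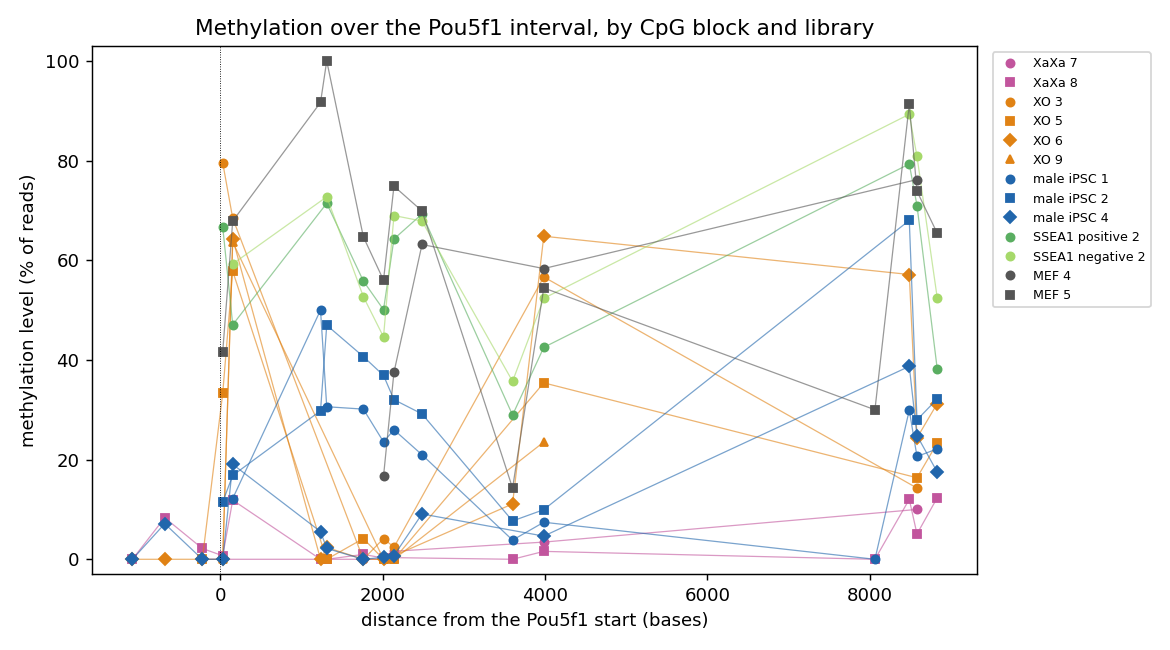
Methylation level in percent of reads for each CpG block of the Pou5f1 interval with at least 10 reads, against distance from the start in bases, 1 line and marker per library, coloured by group. XO libraries are high at the coding block (57.8% to 68.4%) and near 0 at the block 2.1 kb from the start, where MEF 5 is at 74.9%.

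Beyond the gene, at 35651542 to 35651574, each iPSC library was between 5.07% and 28.6%. Levels were 10% and 5.07% in XaXa, 14.3%, 16.4%, 24.4% and 28.6% in XO and 20.6%, 28.0% and 24.8% in male iPSC. The SSEA1 positive and negative libraries had 71.0% and 80.8%, and MEF 4 and 5 had 76.2% and 73.8%. No iPSC library overlapped the SSEA1 or MEF libraries, and male iPSC 4 lay between the other 2 male iPSC libraries although its relative depth was 0.623 against their 12.9 and 13.8. Over the 10 CpGs after the gene that were read in at least 7 libraries, XaXa averaged 10.05% ± 3.04 (SD, n = 2), XO libraries 24.6% ± 3.82 (SD, n = 4), male iPSCs 26.2% ± 5.43 (SD, n = 3) and MEFs 73.0% ± 1.48 (SD, n = 2).

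At Sox2, levels were near 0 in the promoter island and differed between libraries in the coding window. Sox2 has a single exon, and its coding window held 88 CpGs between 34549357 and 34550287. Of these, 32 were read in at least 7 libraries and give the levels of the window. The blocks between 34548476 and 34548880, before the start, and the block at 34549218 to 34549256, between start and coding window, held few methylated reads. In these blocks before the start the highest iPSC level was 2.5% (XO 5). Levels above that were 4.55% in the SSEA1 negative library, 5.56% in MEF 5 and 20% in MEF 4, each from 1 methylated read of 5 to 22. Farther before the start, at 34547262 to 34547292, male iPSC 1 had 11.5% of 26 reads, XaXa 8 4.29% of 70 and MEF 5 11.1% of 18. The other libraries had 0% there. The block at 34549218 to 34549256 had 1 methylated read of 264 in male iPSC 4 (0.379%) and 0 in the other libraries that read it, while XO 9 and the SSEA1 positive library had no read. In the coding window the level was 1.93% and 0.675% in XaXa 7 and 8, 27.1%, 30.9%, 19.1% and 51.6% in XO 3, 5, 6 and 9, and 3.15%, 0.746% and 0.302% in male iPSC 1, 2 and 4. All 4 XO libraries lay above all other iPSC libraries, where XaXa averaged 1.30% ± 0.889 (SD, n = 2), XO libraries 32.2% ± 13.8 (SD, n = 4) and male iPSCs 1.40% ± 1.53 (SD, n = 3). The SSEA1 positive library was at 2.47%, the SSEA1 negative library at 20%, and MEF 4 and 5 at 0% and 7.34%.

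Within the window the first block, 34549500 to 34549512, had reads in all 13 libraries. XaXa 7 and 8 had 1.39% and 0% of 72 and 548 reads, while XO 3, 5, 6 and 9 had 16.3%, 16.4%, 9.83% and 35.9% of 147, 219, 651 and 39 reads. Male iPSC 1, 2 and 4 had 1.11%, 0% and 0% of 90, 63 and 294 reads. The Wilson intervals of the XO libraries began at 7.77% or above and those of the XaXa and male iPSC libraries ended at 7.46% or below. Reads here are summed over 3 neighbouring CpGs, and 1 read can count at each. The intervals are therefore too narrow, and the small gap between them does not separate the libraries. Both SSEA1 libraries and MEF 4 had 0% of 6 to 48 reads, and MEF 5 had 14.1% of 78 reads. The next block, 34549619 to 34549660, was at 0% in each XaXa and male iPSC library and spread widely within the XO group, at 95.8%, 48.7% and 30.7% in XO 3, 5 and 6 with 0 reads in XO 9. At 34549885 to 34549930 the groups overlapped. XaXa 7 and 8 had 0% and 1.11%, XO 3, 5, 6 and 9 had 21.6%, 44.2%, 27.7% and 100% of 74, 172, 484 and 8 reads, and male iPSC 1, 2 and 4 had 21.9%, 0% and 1.39% of 32, 16 and 72 reads. In the SSEA1 positive and negative libraries it was 3.85% and 28.6%, and in both MEF libraries 0%. Male iPSC 1 thus lay just above XO 3, while the other male iPSC and both XaXa libraries lay below all XO libraries.

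After the Sox2 gene, the block at 34552957 to 34552997 separated the MEF libraries from each other. The iPSC libraries were between 0% and 1.42%, the SSEA1 positive library at 5.77% and the SSEA1 negative library at 10%. MEF 4 had 66.7% of 54 reads (Wilson interval 53.4% to 77.8%) and MEF 5 had 1.40% of 143 reads (0.384% to 4.96%). MEF 4 alone was high, so the MEF mean at this place describes neither library.

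Klf4, read from the minus strand, also had higher levels in XO than in other iPSC libraries at several blocks. Its coding window, in the large exon, held 62 CpGs between 55542938 and 55543854, of which 37 were read in at least 7 libraries. Over these 37 the level was 1.98% and 0.830% in XaXa, 11.7%, 8.03%, 6.75% and 8.04% in XO, and 2.80%, 2.92% and 0.456% in male iPSC. The SSEA1 positive and negative libraries were at 9.83% and 16.1%, and MEF 4 and 5 at 0% and 10.7%. Within iPSCs all 4 XO libraries were above the other 5, while MEF 4 lay below the XO libraries and MEF 5 within their range. At the CpG 55542938, XaXa 7 and 8 had 3.45% and 2.01%, XO 3, 5, 6 and 9 had 23.7%, 22.5%, 15.8% and 21.4% of 59, 111, 366 and 14 reads, and male iPSC 1, 2 and 4 had 10.4%, 11.8% and 1.74%.

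A second Klf4 block, nearer the start and outside the coding window, had levels in XO libraries above those of the other iPSCs. Other exons of Klf4 were not placed, so sequence outside its window can include coding sequence. At 55544508 to 55544552 XaXa 7 and 8 had 0% and 1.70%, XO 3, 5, 6 and 9 had 16.8%, 25.8%, 23.9% and 12.5%, a mean of 19.7% ± 6.18 (SD, n = 4), and each male iPSC library had 0%. The XO libraries did not overlap the others, although XO 9 rested on 16 reads and male iPSC 2 on 8. The SSEA1 libraries and MEF 4 had no read there. The CpG at 55541076, also outside the window, had the widest range on few reads. XaXa 7 and 8 had 0% of 3 reads each, XO 3, 5, 6 and 9 had 66.7%, 65%, 55.2% and 33.3% of 9, 20, 29 and 6 reads, and male iPSC 1, 2 and 4 had 0%, 66.7% and 0% of 3, 3 and 13 reads. Of the rest, the SSEA1 positive and negative libraries had 57.1% and 100% of 7 and 8 reads, and MEF 4 and 5 had 100% and 83.3% of 5 and 6. Male iPSC 2 overlapped the XO libraries there, and all XO libraries were below both MEF libraries. Over the gene outside the coding window XaXa averaged 0.615% ± 0.0993 (SD, n = 2), XO libraries 5.55% ± 0.671 (SD, n = 4), male iPSCs 0.504% ± 0.683 (SD, n = 3) and MEFs 5.76% ± 4.23 (SD, n = 2).

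**Figure D3:**
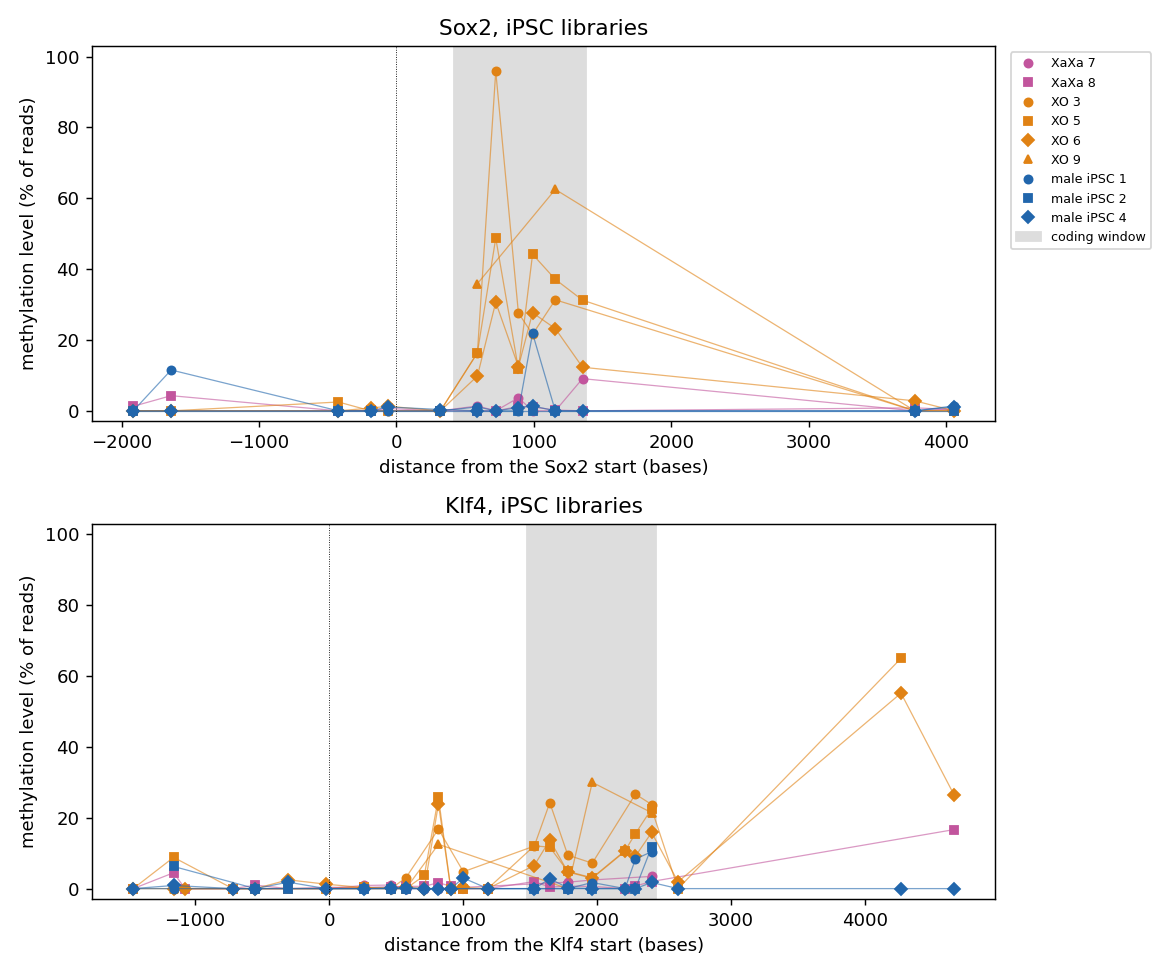
Methylation level in percent of reads for each CpG block with at least 10 reads at Sox2 (upper panel) and Klf4 (lower panel) in the 9 iPSC libraries, against distance from the start in bases, with the coding window in grey. In the Sox2 coding window the 4 XO libraries (19.1% to 51.6% over the window) lie above the XaXa and male iPSC libraries.

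Myc was nearly unmethylated in all libraries. Over the 56 CpGs read in at least 7 libraries XaXa averaged 0.379% ± 0.0046 (SD, n = 2), XO libraries 0.232% ± 0.180 (SD, n = 4) and male iPSCs 0.359% ± 0.315 (SD, n = 3). The SSEA1 positive and negative libraries were at 2.88% and 1.88%, and MEFs averaged 1.88% ± 0.0446 (SD, n = 2). All libraries were thus within a few points of 0. Much of the methylation in the SSEA1 libraries and MEF 5 lay in the block at 61819252 to 61819277, where most iPSC libraries had no read. There XaXa 8 and XO 6 had 0% of 9 and 8 reads, male iPSC 1 and 2 had 2.5% of 40 reads and 0% of 8, and the other iPSC libraries had no read. It held 22.5% of 40 reads in the SSEA1 positive library, 50% of 16 in the SSEA1 negative library and 26.8% of 41 in MEF 5, while MEF 4 had none. With this block left out, which was decided once its values were known, the SSEA1 positive and negative libraries were at 1.36% and 0.387%, MEF 4 and 5 at 1.85% and 0.313%, and the iPSC libraries between 0% and 0.493%, so the SSEA1 negative library and MEF 5 fell within the iPSC range. Of other blocks, 61817357 to 61817384 had 4 of 8 reads methylated in the SSEA1 positive library and 61816691 to 61816804 had 4 of 44 in MEF 4. No promoter entry was used for Myc, so its exons were not placed.

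The depth of the coding window over that of the rest of the interval was set out for each library, since reads from coding copies would raise it. At Pou5f1 the ratio was 0.116 and 1.25 in XaXa, 0.852, 0.768, 1.36 and 1.04 in XO, 0.416, 0.336 and 0.267 in male iPSC, 0.0635 and 0.122 in the SSEA1 positive and negative libraries, and 0.377 and 0.0884 in MEF. The XO libraries were above all male iPSC, SSEA1 and MEF libraries, with XaXa 7 below them and XaXa 8 within their range. The rest of the interval includes the deep gene body of male iPSC 1 and 2, both SSEA1 libraries and MEF 5, which lowers their ratios. Relative to the flanks the order differed. There the coding block at 35643121 to 35643138 averaged 4.45 ± 3.77 in male iPSC, 1.365 ± 0.229 in XO, 0.525 ± 0.609 in XaXa and 0.429 ± 0.311 in MEF (SD). Male iPSC 4, which had no extra depth in the gene body, had the lowest ratio of the male iPSC libraries.

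At Sox2 the ratio was 0.433 and 1.33 in XaXa, 1.43, 1.495, 1.37 and 0.734 in XO, and 0.479, 0.853 and 0.302 in male iPSC. It was 0.656 and 0.418 in the SSEA1 positive and negative libraries, and 0.414 and 0.524 in MEF. XO 9, the shallowest library, lay below XaXa 8 and male iPSC 2, and the other XO libraries lay above all non-XO libraries. At Klf4 it was 0.380 and 0.692 in XaXa, 1.03, 1.08, 0.865 and 0.975 in XO, 0.465, 0.885 and 0.316 in male iPSC, 0.549 and 0.297 in the SSEA1 positive and negative libraries, and 0.436 and 0.355 in MEF. There XO 6 lay just below male iPSC 2, and the other XO libraries were above every other library.

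Over the MEF mean, the XO ratio was 4.32 ± 1.13 at Pou5f1, 2.68 ± 0.75 at Sox2 and 2.50 ± 0.23 at Klf4 (SD, n = 4). These multiples rest on few CpGs, with 2 in the window and 16 outside it at Pou5f1, 12 and 14 at Sox2 and 6 and 14 at Klf4. They also compare libraries that read different CpGs. The MEF mean at Pou5f1 is lowered by the deep gene body of MEF 5, and without that library the XO multiple was 2.67, against 11.4 without MEF 4. Within iPSCs, the Pou5f1 ratio averaged 0.683 ± 0.801 for XaXa (SD, n = 2), 1.004 ± 0.263 for XO (SD, n = 4) and 0.340 ± 0.0744 for male iPSC (SD, n = 3). The Klf4 ratio averaged 0.536 ± 0.221, 0.988 ± 0.0917 and 0.555 ± 0.295 in the same groups. The part of extra copies in the levels and depths of the coding windows was not tested.

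**Figure D4:**
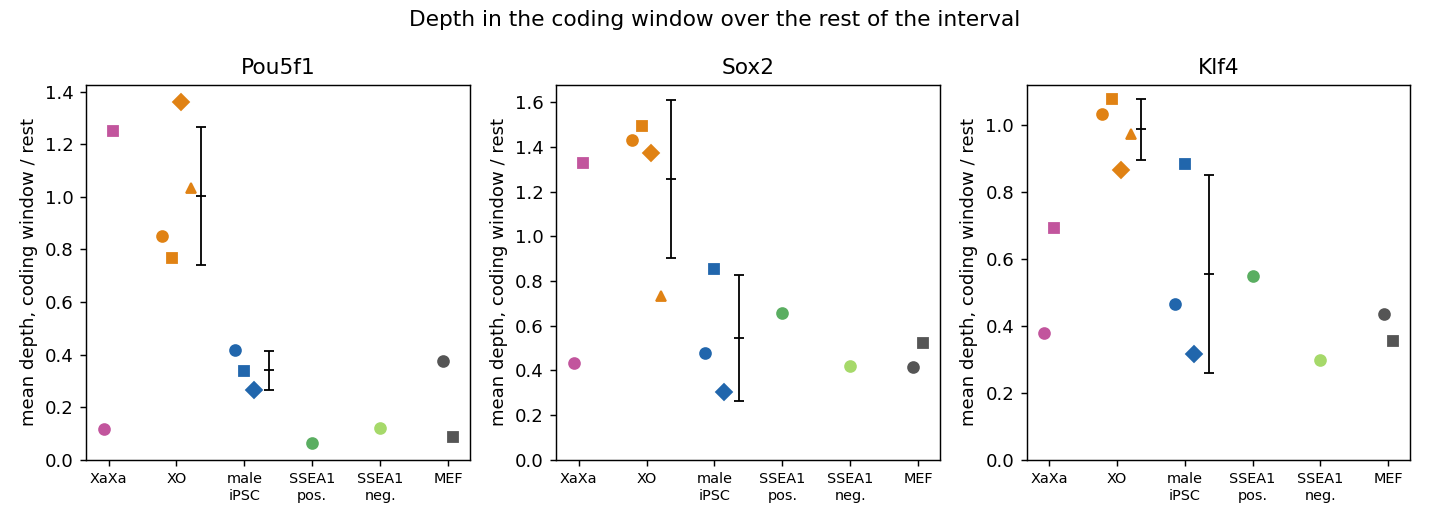
Mean depth of coding-window CpGs over that of the other CpGs of the interval, for Pou5f1, Sox2 and Klf4, 1 point per library by group, with mean and SD drawn for the groups of 3 or 4 libraries. XO libraries reach 1.36 at Pou5f1, 1.495 at Sox2 and 1.08 at Klf4, and male iPSC libraries stay at or below 0.885.

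Levels were tested in 1 kb tiles across the whole genome, in a quasi-binomial model over the 11 libraries of the 4 groups with replicates. Of 28832 tiles tested, 7 lay at the loci, with 3 at Myc, 2 at Sox2 and 1 each at Pou5f1 and Klf4. A tile was called at a Benjamini-Hochberg adjusted p under 0.05 and a difference of group means of at least 10 points. The comparisons with MEF share their MEF libraries and are given side by side.

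Relative to MEF, the Pou5f1 and Sox2 downstream tiles were lower in each kind of iPSC, so 2 of 7 locus tiles were called lower in each comparison and 0 higher, though neither call held in each alternative. Over all tiles, 62.9% were called lower in XaXa, 17.9% in XO and 19.4% in male iPSC, and 0.746%, 5.12% and 4.45% higher. The Pou5f1 tile, whose CpGs are those of the block at 35645098 to 35645133, averaged 0.971% in XaXa, 0.783% in XO, 19.6% in male iPSC and 56.2% in MEF. Its difference from MEF was -55.2 points in XaXa (adjusted p = 8.466e-05), -55.4 in XO (adjusted p = 0.0003639) and -36.6 in male iPSC (adjusted p = 0.001974). Without MEF 5, which was among the deep libraries, the differences were -36.5 (adjusted p = 0.2854), -36.7 (adjusted p = 0.528) and -17.9 (adjusted p = 0.8922), none past the threshold. Leaving out male iPSC 1, male iPSC 2 and MEF 5 together, a choice made after seeing the data, gave -36.5, -36.7 and -36.8 points. That leaves only male iPSC 4 and MEF 4 in their groups, and MEF 4 was also alone without MEF 5. The spread within these groups was then not measured.

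The Sox2 tile with CpGs from 34552672 to 34552997 rests on MEF 4. It was at 0.441% and 0.477% in XaXa, at 0%, 0%, 0.706% and 0% in XO, at 1.14%, 0% and 1.03% in male iPSC, at 6.03% and 9.28% in the SSEA1 positive and negative libraries, and at 65.5% and 2.35% in MEF 4 and 5. Its difference from MEF was -33.5 points in XaXa (adjusted p = 0.009974), -33.8 in XO (adjusted p = 0.02423) and -33.2 in male iPSC (adjusted p = 0.0322). Without MEF 4 it was -1.89 (adjusted p = 0.116), -2.18 (adjusted p = 0.2211) and -1.63 (adjusted p = 0.4594). The difference hardly moved but missed the threshold without XaXa 8 (adjusted p = 0.11), without XO 6 (adjusted p = 0.05007), and without male iPSC 2 (adjusted p = 0.05034) or 4 (adjusted p = 0.1345). In fits over only the groups compared the call was lost in each comparison, with adjusted p = 0.06236 for XaXa, 0.07685 for XO and 0.1547 for male iPSC.

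Between iPSCs, 1 of 7 locus tiles was lower in XaXa than in XO and 1 lower in XaXa than in male iPSC. These shares stood beside 62.5% and 57.9% of all tiles called lower, and 0.0173% and 0.135% called higher, and most locus tiles were near 0% in every iPSC group. The tile lower in XaXa than in XO was that of the Sox2 coding window, with CpGs from 34549500 to 34549930. It was at 1.19% and 0.627% in XaXa, at 18.7%, 27.1%, 17.1% and 45.7% in XO, at 6.61%, 0% and 0% in male iPSC, at 2.11% and 21.1% in the SSEA1 positive and negative libraries, and at 0% and 8.87% in MEF. Both XaXa libraries lay below all XO libraries, with a difference of -26.2 points (adjusted p = 4.689e-05), which was -25.9 without XaXa 8 (adjusted p = 0.1426).

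The Pou5f1 tile was lower in XaXa than in male iPSC, by -18.6 points (adjusted p = 0.002036). With male iPSC 1, male iPSC 2 and MEF 5 left out it was 0.227 points (adjusted p = 0.7517), so the call rests on the deep male iPSC libraries. It was -18.0 without XaXa 8 (adjusted p = 0.3298), and limma on log2 ratios gave an adjusted p of 0.06301 here and of 0.07141 for male iPSC against MEF.

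No locus tile was called between XO and male iPSC in the quasi-binomial model, where 0.506% of all tiles were called higher and 0.0728% lower, and limma on log2 ratios called none. At an unadjusted p under 0.05 there were 2 locus tiles. The Sox2 coding tile was at 27.1% in XO and 2.20% in male iPSC, a difference of 24.9 points (adjusted p = 0.05608), with all XO libraries above all male iPSC libraries. The Pou5f1 tile was at 0.783% in XO and 19.6% in male iPSC, a difference of -18.8 points (adjusted p = 0.08974). The first was called without XO 6 (adjusted p = 0.02995) or without male iPSC 1 (adjusted p = 0.04797), and the second without male iPSC 4 (adjusted p = 0.009599).

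The Myc and Klf4 tiles were called in none of the 6 comparisons and differed by at most 2.01 points in this model. In fits over only the groups compared, which keep more tiles and CpGs, further Pou5f1 and Klf4 tiles came into the test. The Klf4 tile with CpGs from 55544327 to 55544901 averaged 0.621% in XaXa and 6.27% in XO (-5.65 points, adjusted p = 4.945e-05), and that from 55543349 to 55543848 averaged 1.26% in XaXa and 6.47% in XO (-5.21 points, adjusted p = 0.0006778). Between XO and male iPSC the same tiles differed by 4.14 points (4.25% in XO and 0.114% in male iPSC, adjusted p = 0.04285) and 6.15 points (6.36% in XO and 0.214% in male iPSC, adjusted p = 0.124). All lay under the 10 points needed for a call. The Pou5f1 tile with CpGs from 35646936 to 35646986 averaged 2.52% in XaXa and 45.1% in XO (-42.6 points, adjusted p = 0.007521), and 45.1% in XO and 7.35% in male iPSC (37.8 points, adjusted p = 0.05374). In those fits 66% of 53908 tiles were lower in XaXa than in XO, 68.4% of 95285 lower in XaXa than in male iPSC, and 0.0632% of 50623 higher in XO than in male iPSC. The tile with CpGs from 35651040 to 35651827 was lower in male iPSC than in MEF by -47.5 points (adjusted p = 0.002887), among 17.9% of 48699 tiles called lower, and with CpGs from 35651449 to 35651827 it was lower in XaXa than in MEF by -64.9 points (adjusted p = 0.0004193), among 63.6% of 58065. The share lower in XO than in MEF was 18.6% of 30837. Limma on log2 ratios called 57.4%, 22.8% and 24.3% of the 28832 tiles lower in XaXa, XO and male iPSC than in MEF, 50.9% and 44.6% lower in XaXa than in XO and male iPSC, and 0% higher in XO than in male iPSC.

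**Figure D5:**
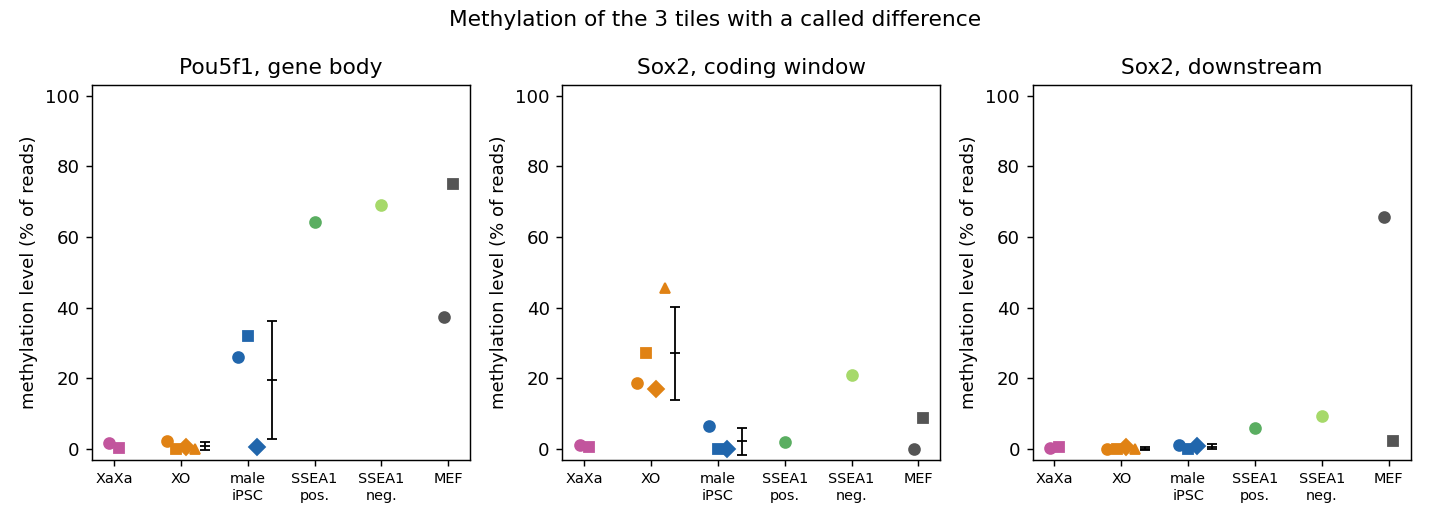
Methylation level in percent of reads of the 3 locus tiles with a called difference, in the Pou5f1 gene body, the Sox2 coding window and after Sox2. Each library is 1 point, placed by group, with mean and SD drawn for the groups of 3 or 4 libraries. The Sox2 coding tile is high in XO (17.1% to 45.7%), and the Sox2 downstream tile in MEF 4 (65.5%) but not MEF 5 (2.35%).

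Of single CpGs with at least 10 reads in each male iPSC and MEF library, 2 lay at Pou5f1, 4 at Sox2, 2 at Klf4 and 1 at Myc. Besides 35645461 above, the Pou5f1 CpG 35644995 was at 25.0%, 39.6% and 0% in male iPSC 1, 2 and 4 and at 25% and 71.2% in MEF 4 and 5, so the groups overlapped. The 3 Sox2 CpGs with the largest differences were 34552963, at 1.53% in male iPSC and 40% in MEF, 34552957, at 0.142% and 32.6%, and 34552997, at 1.06% and 30%. In each MEF 4 was at 60% to 80% and MEF 5 at 0% to 2.70%. The Klf4 CpGs 55544776 and 55544769 were at 0.114% and 0.0859% in male iPSC and at 4.55% and 1.52% in MEF, and the Myc CpG 61815036 at 0.138% and 0%.

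The tiles elsewhere whose levels over the 13 libraries were most like those of the Pou5f1 tile lay on chromosome 14 at 106320054 to 106320274, on chromosome 5 at 115929857 to 115929887 and on chromosome 4 at 118745017 to 118745733. They differed from it by 6.39, 6.45 and 6.60 points on average. Those most like the Sox2 downstream tile lay on chromosome 12 at 86940158 to 86940837 and 82047114 to 82047315 and on chromosome 11 at 41995774 to 41995964, at 2.46, 2.49 and 3.64 points. The Myc tile from 61816019 to 61816980 was within 1 point of 3764 other tiles and the Klf4 tile of 2818, since near-zero levels were common.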

How the data were processed

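The counts deposited by the authors list, per CpG with at least 1 read, all reads and methylated reads, and are not normalised, per the file headers. The methylated fraction deposited by the authors was not used. The submitters' processing notes name BSMAP, an aligner for bisulfite reads, and mm9, while version, filters and any removal of duplicates are not stated in the sources used here. PCR copies look the same as separate RRBS reads, and a read over several CpGs counts at each, so 95% intervals cover counting error only and are too narrow. Positions are mm9, counted from 1.

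A level is methylated over all reads, summed over the CpGs named. Levels of coding windows and of other whole parts of a locus use only CpGs read in at least 7 libraries. Tiles of 1 kb needed 3 CpGs read at least 1 time in each of 11 libraries and 20 reads in each library. Methylated and unmethylated reads were fitted by a quasi-binomial model, 1 mean for each group, with the dispersion moderated with limma 3.58.1 (squeezeVar) and kept at 1 or above, and F-test p-values were adjusted by Benjamini-Hochberg over all tiles. P-values measure the spread between libraries, which may be technical. Where leaving out libraries left 1 in a group, that group added nothing to the estimate of the spread. On simulated counts in 28832 tiles with a spread set as a multiple of the binomial variance, 94 of 100 tiles with a 40-point change were found for male iPSC against MEF and all 100 for XaXa against XO, XaXa against male iPSC and XO against male iPSC. Where the spread was instead a fixed variance of the level, 983 of 28632 unchanged tiles (3.43%) were called for XaXa against XO, so calls between deep libraries can be too many. In that setting only 4, 16 and 31 of 100 tiles with a 40-point change were found for male iPSC, XO and XaXa against MEF. Large changes against MEF can thus be missed.

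Coding windows came from general knowledge of the exons, placed on mm9 by distance from the start, with values already seen, as no mm9 annotation was used. Promoters are RefSeq sequences of GRCm38.p6. All members, lists and windows were chosen with earlier results of these data known. Named tiles are those tested in the intervals; named CpGs are up to 3 per locus with the largest difference between male iPSC and MEF. The work used R 4.3.3 and Python 3.11.15 with scipy 1.17.1, pandas 2.3.3, numpy 2.4.6 and matplotlib 3.10.9.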

Additional observations from a re-analysis of the deposited data

Results flagged for a closer look

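Of 21 values tested in the 4 libraries labelled XO, 5 had 1 library far from the other 3. The rule is met whenever 3 libraries are at 0% and 1 is not. The usual rate of about 1 in 20 therefore does not hold for levels near 0. The level of the Myc tile at 61815001 was 0.1285% in XO 6 and 0% in the others. The Sox2 tile at 34552001 was at 0.7056% in XO 6 and 0% in the others. The 10 CpGs after Sox2 read in at least 7 libraries, which include those of this tile, were together at 0.7014% in XO 6. XO 6 is the deepest of the 4, and these values rest on few methylated reads. The level upstream of Pou5f1 was 3.03% in XO 5 and 0% in the others. The depth of the Sox2 coding window over the rest was 0.7341 in XO 9, the shallowest library, against 1.43, 1.495 and 1.37 in XO 3, 5 and 6.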

How the results depend on the processing

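Of 126 recomputed counts of called locus tiles, 85 stayed within 1.5 times the main count and 41 did not. Of single-tile results, 718 kept direction and side of the threshold, 22 lost and 3 gained the call, and 1 reversed, the Pou5f1 tile in XaXa minus male iPSC without the deep libraries male iPSC 1, male iPSC 2 and MEF 5 (0.2271 points). This setting and those with only XO 6 were chosen after seeing the data. The comparisons with MEF (XaXa, XO, male iPSC) each gave 1 call with at least 10 reads per CpG or at least 5 CpGs per tile, and with only XO 6 and MEF 4. With only XO 6, XO and male iPSC minus MEF gave 1 each. With 100 reads per tile no locus tile was left, so counts were 0 in the 5 comparisons with calls. XaXa minus XO gave 0 at 5 or 10 reads per CpG and 2 in fits of the groups compared. XaXa minus male iPSC gave 0 at 10 reads, with at least 5 CpGs, by limma on log2 ratios and without the deep libraries, and 3 in fits of the groups compared. Such fits gave 1 for XO minus MEF, and limma gave 1 for male iPSC minus MEF. Leaving out each library in turn gave 1 to 2 calls in each comparison with MEF and 0 to 1 in the others.

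The XO to MEF multiple of the coding-window depth ratio, by median depth, was 7.999 at Pou5f1, 1.388 at Sox2 and 1.824 at Klf4. With the flanks as denominator it was 3.178, 3.853 and 4.459. With only XO 6 it was 5.854 at Pou5f1 and 2.188 at Klf4. Leaving out libraries gave 2.667 to 11.36, 2.401 to 3.035 and 2.267 to 2.78. Of the recomputed multiples at the 3 loci, 11 moved by more than the SD of the main value and 7 did not, while all stayed above 1. The cause was not tested. No paired analysis was possible because the groups compared share fewer than 2 replicate numbers. Depth limits what can be said of the Pou5f1 promoter in the MEF and SSEA1 libraries, with 1 or 2 reads at 35642755.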

Other observations

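Of 20 further genes of the pluripotency network, 12 had a RefSeq promoter entry and 8 were placed on mm9. Of these, 3 (Esrrb, Zfp42 and Fgf4) had a tested tile that overlaps the promoter window. The tested CpGs of the Zfp42 and Fgf4 tiles lay outside the window itself. Zfp42 (Rex1), a zinc-finger marker of naive pluripotent cells, had its tile on chromosome 8 at 44392762 to 44392927 lower in each kind of iPSC than in MEF. It averaged 1.73% in XaXa, 2.86% in XO, 3.34% in male iPSC and 50.2% in MEF, differences of -48.4 (adjusted p = 7.65e-06), -47.3 (adjusted p = 3.802e-05) and -46.8 points (adjusted p = 4.594e-05). Beside this, 62.9%, 17.9% and 19.4% of all tiles were called lower than MEF in XaXa, XO and male iPSC. The Esrrb and Fgf4 tiles were not called in any comparison. Between kinds of iPSC the 3 tiles had adjusted p values of 0.1232 to 0.8489 in the quasi-binomial model.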
